A study of Sus scrofa with 8 samples.

Results

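Endothelial cells, the cells that line blood vessels, were examined in single-cell RNA libraries of pig embryos. They were selected on measured counts, as the cell barcodes in which at least 3 of the 7 endothelial genes PECAM1, CDH5, KDR, PLVAP, ESAM, TIE1 and CLDN5 had at least 1 UMI. A UMI, or unique molecular identifier, is 1 counted transcript molecule. Of 90688 barcodes deposited, 82394 had at least 200 genes, at most 30000 UMIs and at most 10% of their UMIs on the 13 mitochondrial genes, and 2509 of these met the endothelial rule. The other 79885 kept barcodes were used for comparison and are called other cells. Because the cells were chosen by these 7 genes, their levels of the 7 genes and their difference from the other cells are given as a description, without a test.

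The 8 libraries came from Tibetan pigs (ZZ) and from Duroc × Tibetan pigs (DZ) at embryonic days E16, E18, E21 and E28. Somites, the paired blocks of mesoderm beside the neural tube, were taken at E16, E18 and E21, and the myotome, the muscle-forming layer derived from them, at E28. Each library pooled 5 embryos of 1 sow, so the sow, the library and the breed at a stage cannot be told apart. With 1 library per stage and breed, E16 and E18 were joined as early and E21 and E28 as late, which gave 4 libraries a period. The change of tissue at E28 lies within the late period. A library is written as its stage and breed, such as E16-ZZ. Values by library run from the earliest stage to the latest, with ZZ before DZ at each stage. P-values measure the spread between these pooled libraries.

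Endothelial cells arise from mesoderm under the ETS-family factor ETV2 and respond to vascular endothelial growth factor (VEGF) through KDR. The first vessels form by the joining of single precursors, and later ones by sprouting, led by tip cells. Notch signalling and blood flow mark arteries, whereas NR2F2 marks veins and PROX1 marks lymphatic vessels. Mature capillaries lay down a basement membrane of type IV collagen and laminins, and those of the brain and spinal cord acquire tight junctions and selective carriers. The somite supplies endothelial cells of the trunk and limb, and segmental vessels run between neighbouring somites.

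The endothelial cells held 24783529 UMIs in all, from 643823 in E21-DZ to 8654983 in E16-DZ, so a level read from 3 counts was 0.347 CPM in the deepest library and 4.66 CPM in the shallowest. CPM is the UMI count of a gene scaled to 1000000 summed UMIs of the same cells in a library. Their median UMI count per cell was 7110 to 10746 across libraries, against 3484 to 6094 in other cells. The median mitochondrial share was 4.93% to 7.58% in endothelial cells and 3.67% to 5.76% in other cells. The limit of 10% removed 39.2% of the barcodes of E16-ZZ and 1.05% to 9.15% of those of each of the other 7 libraries. Pairs of libraries shared 23 to 49 barcode sequences. Barcodes were not removed as doublets from the main counts. The top doublet scores at the expected rate fell on 423 of the endothelial cells, or 13.4% to 22.4% of a library's, against 5.03% to 9.73% of all kept barcodes. At least 3 genes of another cell class, mesenchymal and mural genes not counted, were present in 718 endothelial cells, 8.24% to 36.1% of a library's. At least 3 mesenchymal genes were present in 42.1% of the endothelial cells of E28-DZ and 34.1% of those of E28-ZZ. In each of the other libraries they were present in at most 29.1%.

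The label was checked against endothelial genes outside the rule. Of the 2509 cells, 844 carried all 7 rule genes, 557 carried 6, 406 carried 5, 332 carried 4 and 370 carried 3. Those with all 7 were 23.5% to 42.6% of a library's endothelial cells early and 44.0% to 75.0% late. Another 1462 kept barcodes had exactly 2 of the genes and fell just outside. CD34, a surface sialomucin of vessels and blood progenitors, was at 26.4 to 96.7 CPM in cells with 3 rule genes and at 0 to 10.9 CPM in those with 2. The secreted vascular factor EGFL7 was at 206 to 677 CPM against 63.0 to 238 CPM, and the transcription factor SOX18 at 41.0 to 294 CPM against 7.04 to 77.7 CPM. CD34 did not overlap across the threshold, whereas EGFL7 and SOX18 did in their extreme libraries. Of 7 genes compared in this way, CD34, EGFL7, SOX18 and EMCN were higher with 3 rule genes than with 2 in all 8 libraries. ERG was higher in 7, and FLI1 and TEK in 5 of the 8. FLI1 was at 0 against 79.6 CPM in E21-DZ, 38.2 against 59.99 CPM in E28-ZZ and 0 against 84.1 CPM in E28-DZ, and TEK was at 0 with 3 rule genes in these libraries. Only 6, 9 and 4 of their cells had exactly 3 rule genes. All 7 rule genes were detected in every library. Their detection and the tally of rule genes per cell rest on the genes that chose the cells, so they give no support for the label.

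Among genes outside the rule with a symbol and an endothelial mean of at least 50 CPM, the 20 with the largest median log2 ratio to other cells over the 8 libraries, computed with 1 CPM added to each level, began with CD93, a C-type lectin-like receptor of endothelium (7.72), the endothelial surface regulator ECSCR (7.64), MYCT1 (7.06), the gap junction protein connexin 37, GJA4 (7.03), and the apelin receptor APLNR (7.0). They went on with TM4SF18 (6.63), the semaphorin receptor PLXND1 (6.45), CD34 (6.31), the transcription factors SOX17 (6.16), BCL6B (6.15) and SOX18 (6.04), and PCDH12 (6.14). The last 8 were CLEC3B, KANK3, RASGRP3, THSD1, ARHGDIB, the guidance receptor ROBO4, CAVIN2 and VWF, the von Willebrand factor that captures platelets, at 5.60 to 5.85. CD93 was at 456, 426, 485 and 487 CPM early and 1056, 770, 1269 and 1214 CPM late, against 0.942 to 5.92 CPM in other cells. Its endothelial levels stood far above those of other cells in all 8 libraries, and its late libraries were all above its early ones.

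The promoters of these genes are shown because ETS-family factors such as ETV2, FLI1 and ERG bind a GGAA core. The 250 bases before each RefSeq start site (Sscrofa11.1) were searched on both strands for CCGGAAG and CAGGAAG. Of the 19 of the 20 genes with a window, 4 held a match (21.1%), against 3025 of 19508 protein-coding genes (15.5%) and 0 of the 7 rule genes. A match is a run of letters and not a measured site. The matches are in capitals below with 10 flanking bases on each side, read in the direction of the gene.
ECSCR, chr2:141352632-141352658, minus strand, 24 bases before the start: tattctttaaCAGGAAGctcctggaga
GJA4, chr6:91045326-91045352, plus strand, 88 bases before the start, motif on the opposite strand: cctcccgccgCTTCCTGcccctacccc
PLXND1, chr13:68996670-68996696, minus strand, 55 bases before the start: ctggcgcgggCAGGAAGcgcctcgcgg
ROBO4, chr9:52097834-52097860, minus strand, 60 bases before the start: gagagccaggCAGGAAGcatcggtttc

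Among the rule genes, the tight junction protein claudin 5 (CLDN5, chromosome 14, 51161490 to 51162382) had the widest difference between periods. It stood at 224, 254, 355 and 392 CPM early and at 2277, 1441, 1190 and 1346 CPM late. The late libraries were all above the early ones, with E21-ZZ highest. The adhesion receptor PECAM1 was at 382 to 468 CPM early and 631 to 1202 CPM late, and the adherens junction cadherin CDH5 at 91.0 to 197 CPM early and 211 to 367 CPM late. The VEGF receptor KDR overlapped, at 205 to 248 CPM early and 227 to 334 CPM late. PLVAP, the diaphragm protein of fenestrae, was at 1144 to 1217 CPM early and 1538 to 2334 CPM late. The 7 genes were part of the fit across genes described below and are in its totals, but no test of them is given, since they chose the cells.

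Endothelial cells made up a smaller share of the kept barcodes late than early. They were 8.65% of E16-ZZ (545 of 6297, exact 95% interval 7.97% to 9.38%), 9.65% of E16-DZ (1023 of 10603, 9.09% to 10.2%), 2.46% of E18-ZZ (253 of 10301, 2.17% to 2.77%) and 3.27% of E18-DZ (338 of 10347, 2.93% to 3.63%). They were 1.15% of E21-ZZ (of 11610, 0.968% to 1.37%), 0.540% of E21-DZ (55 of 10194, 0.407% to 0.702%), 0.782% of E28-ZZ (85 of 10869, 0.625% to 0.966%) and 0.624% of E28-DZ (76 of 12173, 0.492% to 0.781%). Both E16 libraries were highest, both E18 libraries lay between, and all 4 late libraries were below every early one. The intervals cover counting error only. The mean was 6.01% ± 3.67 (SD, n = 4) early and 0.775% ± 0.272 (SD, n = 4) late. The difference of -5.23 percentage points had an exact two-sided permutation p of 0.0286, the smallest that the 70 splits of 8 libraries allow. With barcodes thinned to 1500 UMIs, which left out shallower ones and kept 6170, 9552, 9142, 9784, 11420, 10086, 10697 and 11825 barcodes, the shares were 3.76%, 5.33%, 1.45% and 1.92% early and 0.814%, 0.307%, 0.682% and 0.541% late, a difference of -2.53 points with the same exact p. A mitochondrial limit of 5% left a difference of -1.10 points with an exact permutation p of 0.0571. Without both E16 libraries it was -2.09 points (exact permutation p 0.0667, the smallest that 15 splits allow), and without any 1 of the late libraries it was -5.36 to -5.15 points (exact permutation p 0.0857). Shares depend on what was dissected and on how cells were released, and their part in the difference was not tested.

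**Figure D1:**
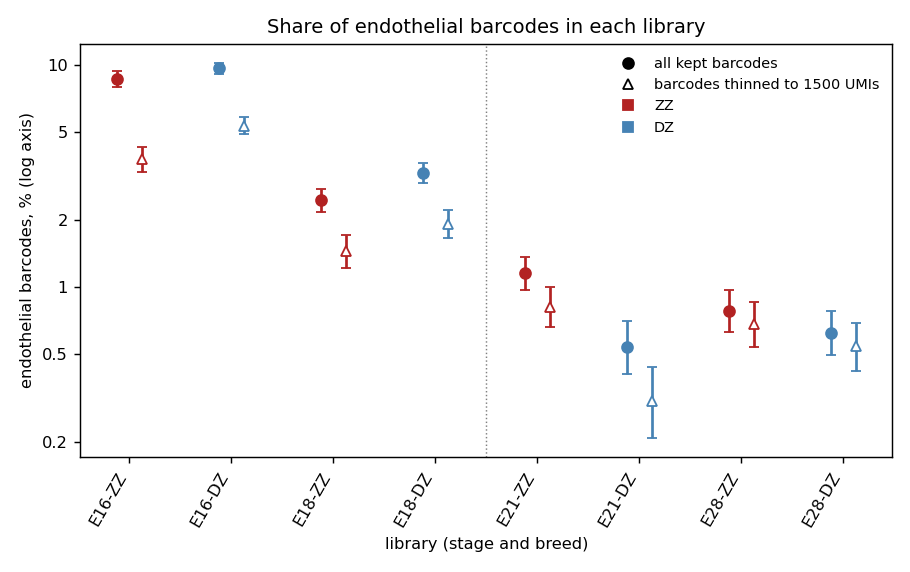
Share of barcodes that were endothelial, in percent on a log axis, for each of the 8 libraries, with all kept barcodes as circles, barcodes thinned to 1500 UMIs as triangles, and exact 95% binomial intervals. The 4 early libraries sit between 2.46% and 9.65% and the 4 late ones between 0.540% and 1.15% before thinning.

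Within endothelial cells, 9412 genes were tested between periods. Late against early, 2532 genes passed an adjusted p of 0.05 (26.9%), 1329 higher (14.1%) and 1203 lower (12.8%). The median log2 fold change over all tested genes was 0.02. The low-count filter kept genes through either period, so a gene near 0 in 1 period entered only if it was high in the other. For such genes the direction follows from the filter, and they give no support for a change of their list. Fold changes below are log2 of late over early with their SE, from a model with breed as a covariate.

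Beside the test, naming required no overlap between periods, at least 50 CPM late and at least 2 times the level of other cells. Of all genes tested, 17.3% were higher late without overlap and 10.5% lower. Within these limits, the genes that rose most were led by SPARCL1, PRND and GPIHBP1. SPARCL1, a secreted matrix glycoprotein (chromosome 8, 131386804 to 131431427), was at 0.332, 0.693, 0.652 and 1.48 CPM early and at 405, 388, 9.56 and 34.8 CPM late (log2 7.98 ± 1.21, adjusted p 0.0016). It had at most 6 UMIs in any early library, and the E21 libraries stood far above the E28 ones. PRND, which encodes the prion-like protein doppel (chromosome 17, 13729715 to 13735485), was at 1.99, 0.231, 2.93 and 0.592 CPM early and at 115, 103, 229 and 326 CPM late (log2 7.13 ± 0.60, adjusted p 0.000202). GPIHBP1, which carries lipoprotein lipase across capillary endothelium (chromosome 4, 1253401 to 1256921), was at 0.498, 0.809, 2.28 and 2.07 CPM early and at 38.8, 87.0, 53.1 and 111 CPM late (log2 5.76 ± 0.37, adjusted p 5.69e-05). PRND and GPIHBP1 stayed under 1 CPM in the other cells of every library, with a highest value of 0.907 CPM for PRND and 0.144 CPM for GPIHBP1.

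Next in size was FILIP1, a filamin-interacting protein, at 1.27 to 11.4 CPM early and 116 to 226 CPM late (log2 5.12 ± 0.56). COL15A1, a collagen of the outer basement membrane, was at 36.4 to 100 CPM early and 558 to 1187 CPM late (3.67 ± 0.33), and the laminin chain LAMA4 at 4.85 to 27.2 CPM early and 112 to 249 CPM late (3.66 ± 0.50). The chemerin gene RARRES2 was at 18.3 to 45.3 CPM early and 201 to 537 CPM late (3.56 ± 0.34), with both E21 libraries above both E28 ones. The apelin gene APLN, a tip cell ligand, was at 8.90 to 32.8 CPM early and 132 to 313 CPM late (3.24 ± 0.44). SPRY1, an inhibitor of receptor tyrosine kinase signalling, was at 31.9 to 61.9 CPM early and 196 to 1028 CPM late (3.39 ± 0.34). PLCL1 (3.32), LMCD1 (3.18) and RASSF2 (3.16) complete the 12. The rule for naming left 316 candidates that rose, of which these had the largest fold changes, and 16 that fell.

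Under the same limits applied to the early libraries, the genes that fell were led by STEAP1, a membrane metalloreductase, which went from 347, 206, 43.4 and 24.6 CPM early to 7.59, 6.21, 6.37 and 1.12 CPM late (log2 -5.08 ± 1.00, adjusted p 0.00524). The 2 E16 libraries were far above the 2 E18 ones. SERPINI1, the protease inhibitor neuroserpin, was at 85.8 to 153 CPM early and 4.25 to 32.6 CPM late (-3.17 ± 0.44). HAPLN1, a link protein of hyaluronan matrix, was at 379, 429, 481 and 578 CPM early and at 230, 152, 59.5 and 29.2 CPM late (-2.13 ± 0.46), with E21 above E28. CCDC80 (-2.74), TMEM245 (-1.96), the laminin chain LAMA1 (-1.63), the endothelial receptor GPR182 (-1.30), the adhesion receptor ADGRL4 (-1.08), the ganglioside synthase ST3GAL5 (-1.07), TOR4A (-0.73) and the small GTPase RALB (-0.66) also fell. With a mitochondrial limit of 5%, which left 5 libraries, TOR4A turned to 0.42 and was not past the threshold.

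**Figure D2:**
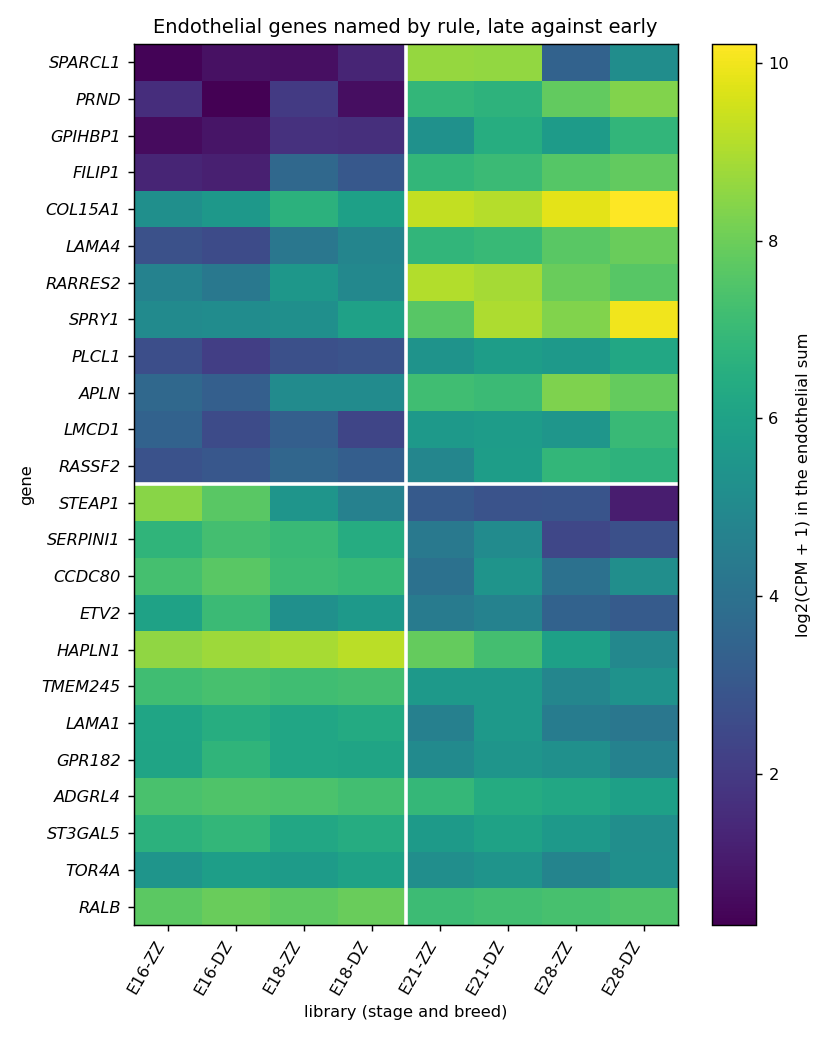
Heat map of log2(CPM + 1) in the endothelial sums of the 8 libraries (columns) for the 12 genes that rose most and the 12 that fell most between periods among those with no overlap, at least 50 CPM in the higher period and at least 2 times the level of other cells (above and below the white line, with early libraries to the left of the vertical line). The risen genes are bright on the late side and the fallen genes on the early side, with SPARCL1 much brighter at E21 than at E28.

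Most transcription factors of the endothelial programme rose late, whereas ETV2 fell. Of 15 tested, 9 rose and 1 fell, against 14.1% and 12.8% of all genes, with a median log2 of 0.76 against 0.02 over all genes. ETV2, the inducer of endothelial fate (chromosome 6, 45085984 to 45089592), was at 63.3, 131, 37.8 and 48.8 CPM early and at 20.2, 24.9, 9.56 and 7.85 CPM late, and fell by 2.27 ± 0.45 on the log2 scale (adjusted p 0.00559). Its early and late libraries did not overlap, and E16-DZ was highest. Other cells held 7.52 to 29.8 CPM of ETV2, which in the E28 libraries was near the endothelial level. EPAS1, the hypoxia-inducible factor 2 alpha (chromosome 3, 94167759 to 94253662), was at 12.6, 19.5, 31.3 and 61.0 CPM early and at 142, 179, 159 and 233 CPM late (2.51 ± 0.34, adjusted p 0.000997), with no overlap.

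SOX17 and SOX18, factors of arterial and general endothelial identity, rose by 1.44 ± 0.22 and 1.29 ± 0.22. In the comparison with other cells described below, SOX17 differed by 3.03 (adjusted p 0.00387). SOX18 differed by -0.10 (adjusted p 0.855), so its rise was not called different from that of other cells. SOX18 was at 226 to 330 CPM early and 471 to 964 CPM late. The ETS factors ETS2 (1.38), ETS1 (1.07), ERG (0.88) and ELK3 (0.76) rose, as did MEF2C (0.78) and LMO2 (0.47). FLI1, another ETS factor (chromosome 9, 55612905 to 55749784), overlapped between periods, at 141, 140, 122 and 203 CPM early and 154, 152, 138 and 186 CPM late (-0.04 ± 0.15, adjusted p 0.857). The blood and endothelial factors TAL1 (0.19) and GATA2 (0.02), and HHEX (0.26) and BCL6B (0.69), did not pass the test. The calls of ELK3 and LMO2 rested on single libraries: ELK3 was lost without any 1 of E16-ZZ, E16-DZ, E21-ZZ, E28-ZZ or E28-DZ (adjusted p up to 0.0964), and LMO2 without any 1 of E16-ZZ, E16-DZ, E18-ZZ, E21-ZZ or E28-ZZ (up to 0.0755).

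Among VEGF and angiopoietin components, 3 of 8 tested genes rose and 1 fell, against 14.1% higher and 12.8% lower over all genes tested, with a median of 0.33. The ligand VEGFC, which acts on FLT4, was at 17.1 to 46.5 CPM early and 52.0 to 97.9 CPM late (1.38 ± 0.29, adjusted p 0.00654). The co-receptor NRP1 was at 51.3 to 74.0 CPM early and 83.5 to 135 CPM late (0.83 ± 0.18), and the VEGFC receptor FLT4 was at 26.6 to 53.6 CPM early and 63.7 to 83.9 CPM late (0.74 ± 0.22). TEK, the angiopoietin receptor, was at 170, 273, 190 and 237 CPM early and 199, 162, 116 and 88.6 CPM late (-0.72 ± 0.24, adjusted p 0.0475), with overlap through E21-ZZ. The decoy receptor FLT1 was at 55.3 to 107 CPM early and 65.9 to 107 CPM late (-0.06 ± 0.19). FLT4 was lost without any 1 of E16-ZZ, E16-DZ, E21-DZ, E28-ZZ or E28-DZ (adjusted p up to 0.103), and TEK without any library but E21-ZZ (up to 0.128).

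Most other endothelial surface genes rose with stage. Of 14 tested, 9 rose and TEK fell, with a median of 0.97 (14.1% higher and 12.8% lower over all genes). ROBO4, which steadies vessels, was at 17.8 to 36.2 CPM early and 111 to 223 CPM late (2.58 ± 0.27, adjusted p 0.00035). CLEC14A (2.01), the leukocyte adhesion ligand ICAM2 (1.75), CD34 (1.51), CD93 (1.11), RAMP2 (1.10), ECSCR (1.01), MMRN2 (0.93) and S1PR1 (0.88) also rose. CD34 was at 133.5, 97.3, 160 and 195 CPM early and at 385, 370, 529 and 489 CPM late, without overlap. EGFL7 (0.07 ± 0.18), EMCN (0.74 ± 0.33), CALCRL (0.51 ± 0.17) and VWF (0.77 ± 0.27) did not pass the test. S1PR1 was lost without any 1 of E16-ZZ, E16-DZ, E18-ZZ, E28-ZZ or E28-DZ (adjusted p up to 0.13), MMRN2 without E16-DZ, E21-ZZ or E21-DZ (up to 0.0682), and CLEC14A without either E28 library (up to 0.0555).

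Arterial genes did not move together. Of 11 tested, 3 rose and 2 fell, with a median of 0.37, against 14.1% higher and 12.8% lower over all genes tested. Connexin 40 (GJA5, chromosome 4, 99854129 to 99871288), the gap junction protein of arteries, was at 124, 258, 274 and 436 CPM early and at 34.6, 123, 30.8 and 127 CPM late (log2 -2.08 ± 0.30, adjusted p 0.00121). Only E16-ZZ kept the periods from separating, since its 124 CPM lay below the 127 CPM of E28-DZ. With a mitochondrial limit of 5% the fold change of GJA5 turned to 0.67 and was not past the threshold. The Notch effector HEY2 was at 9.80, 19.8, 15.7 and 25.7 CPM early and at 2.53, 6.21, 2.12 and 2.24 CPM late (-2.56 ± 0.34), without overlap.

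The chemokine receptor CXCR4 rose from 19.6 to 40.4 CPM early to 113 to 162 CPM late (1.98 ± 0.21), and the netrin receptor UNC5B (1.14 ± 0.18) and NOTCH4 (1.05 ± 0.16) rose too. The other connexin, GJA4, overlapped at 91.9, 260, 202 and 294 CPM early and 202, 247, 119 and 297 CPM late (-0.05 ± 0.21). The Notch ligand DLL4 (0.80 ± 0.34), the ephrin EFNB2 (0.48 ± 0.21), JAG2 (0.37), HEY1 (0.17) and NOTCH1 (0.17) did not pass the test. Of the venous genes, 1 of 4 tested rose, against 14.1% of all genes. APLNR was at 239, 191, 304 and 359 CPM early and at 614, 556, 788 and 779 CPM late (1.23 ± 0.19, adjusted p 0.00191), with no overlap. NR2F2, the venous regulator, was at 40.6 to 146 CPM early and 115 to 190 CPM late (0.61 ± 0.35), with E18 already in the late range. STAB1 had a lower mean late, at 122.9 CPM early and 87.2 CPM late (-0.59 ± 0.21, adjusted p 0.0609). It did not pass the test, nor did EPHB4 (0.49 ± 0.26).

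Single cells with at least 2 arterial genes were common at equal depth. Thinned to 1500 UMIs, they were 16.9%, 25.2%, 16.2% and 20.2% of endothelial cells early and 23.2%, 32.1%, 17.1% and 29.3% late, against 0.650% to 4.28% of other cells. Without thinning, the endothelial shares were 55.9% to 78.9%. Those with at least 2 venous genes were 7.61%, 8.26%, 16.6% and 19% early and 19.2%, 20.8%, 26.8% and 13.3% late, against 0.444% to 1.47% of other cells. The E16 libraries were lowest for the venous genes, and the periods overlapped for both sets. Both sets at once were found in 0.593% to 5.66% of endothelial cells. For the lymphatic genes the share was 0% to 2.44%, and other cells held 0.00851% to 0.921%. Between periods, 1 of 4 lymphatic genes tested rose and 0 fell, against 14.1% higher and 12.8% lower over all genes tested. MMRN1, at a mean of 63.2 CPM early and 53.8 CPM late (-0.38 ± 0.19), and PDPN (0.36 ± 0.45) did not pass the test. PROX1, the lymphatic regulator, was at 3.0 to 7.69 CPM early and at 27.0, 10.9, 23.4 and 3.37 CPM late (1.47 ± 0.46, adjusted p 0.0382), with overlap. Its call was lost on leaving out any library but E18-DZ or E28-DZ (adjusted p up to 0.126). The hyaluronan receptor LYVE1 reached 68.3 CPM in E21-DZ and 23.4 CPM in E28-ZZ but stayed at 0.843 and 1.12 CPM in E21-ZZ and E28-DZ.

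**Figure D3:**
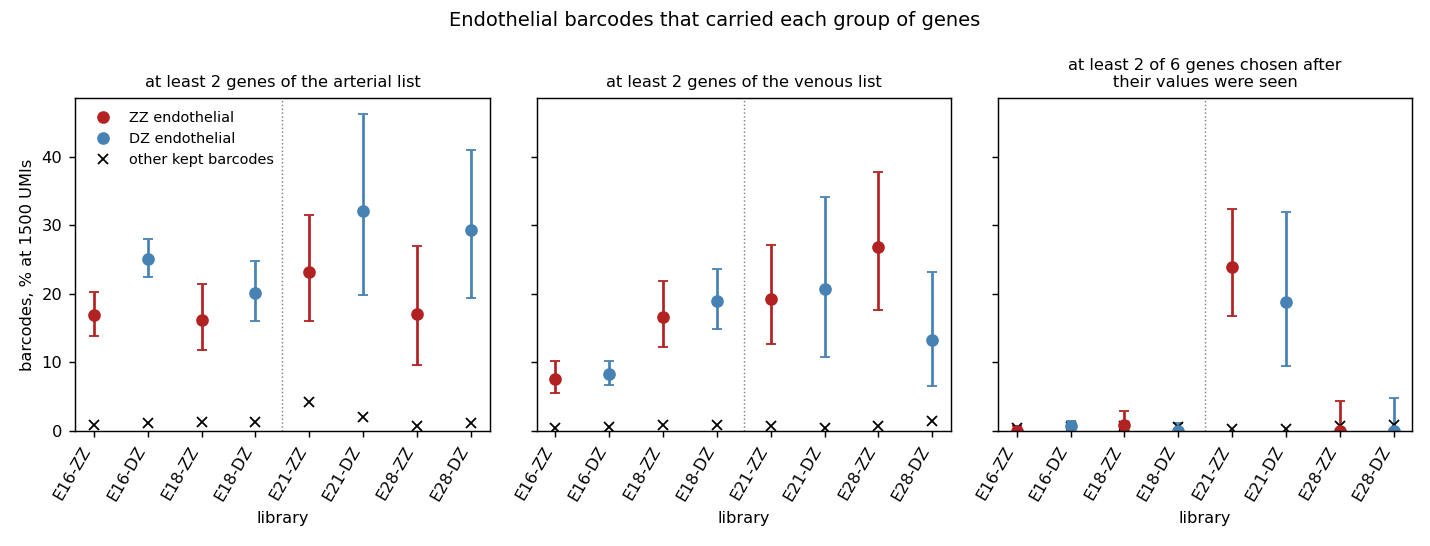
Share of endothelial cells, in percent, with at least 2 arterial genes, at least 2 venous genes and at least 2 of 6 solute-transport and capillary genes chosen after their values were seen, after thinning to 1500 UMIs, by library with exact 95% intervals and with other cells as crosses. Arterial shares lie between 16.2% and 32.1%. In the last panel the E21 libraries are at 24.0% and 18.9%, and their contrast with the others follows from the choice of its genes.

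Of 11 genes of sprouting tip cells tested, 7 rose and none fell, with a median of 1.47 (14.1% higher and 12.8% lower over all genes). Beside APLN and LAMA4, the chemokine CXCL12 was at 12.5 to 27.4 CPM early and 54.0 to 148.7 CPM late (2.06 ± 0.36), and the pericyte recruitment factor PDGFB at 9.36 to 18.9 CPM early and 43.5 to 72.9 CPM late (1.91 ± 0.24). PLAUR (1.49), the proteoglycan ESM1 (1.47) and TP53I11 (1.28) rose. ANGPT2 (0.72 ± 0.32), ADM (0.35), NID2 (0.71) and KCNE3 (-0.62) did not pass the test. ESM1 was lost without E16-DZ, E28-ZZ or E28-DZ (adjusted p up to 0.0909).

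Of 12 basement membrane genes tested, 8 rose and 1 fell, with a median of 1.13 (14.1% higher and 12.8% lower over all genes). The type IV collagen chain COL4A1 was at 257, 237, 249 and 330 CPM early and at 716, 940, 1195 and 1295 CPM late (1.85 ± 0.19, adjusted p 0.00035). Its partner COL4A2 was at 222 to 259 CPM early and 635 to 1074 CPM late (1.83 ± 0.18, adjusted p 0.000303). Both were higher in every late library than in any early one. The calcium-binding matrix protein SPARC (1.27 ± 0.29), the heparan sulphate proteoglycan HSPG2 (0.98 ± 0.20) and LAMB1 (0.63 ± 0.16) also rose. COL18A1, the source of endostatin, was at 165 to 272 CPM early and 153 to 174 CPM late (-0.69 ± 0.18, adjusted p 0.0182), and LAMC1 (-0.06 ± 0.21), NID1 and NID2 did not pass the test. LAMB1 was lost without E16-DZ, E28-ZZ or E28-DZ (adjusted p up to 0.0662), and COL18A1 without E16-ZZ, E16-DZ or E28-DZ (up to 0.0547). Among adhesion genes, against 14.1% of all genes, 2 of 7 tested rose, ICAM2 and the junctional molecule JAM2, the latter from 2.43 to 5.92 CPM early to 22.3 to 68.3 CPM late (3.60 ± 0.36).

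Of 7 barrier and transport genes tested, 3 rose and 1 fell, against 14.1% higher and 12.8% lower over all genes tested, with a median of 1.30. The caveolar proteins CAVIN2 (2.57 ± 0.54) and CAVIN1 (1.58 ± 0.34) and the Wnt effector LEF1 (1.30 ± 0.21) rose, and the monocarboxylate carrier SLC16A1 fell by 1.11 ± 0.24. The amino acid carrier SLC7A5 (chromosome 6, 1545940 to 1574298) was at 14.5 to 22.2 CPM early, 183 and 82.3 CPM at E21, and 7.43 and 2.24 CPM at E28 (1.68 ± 0.80, adjusted p 0.144). Its partner SLC3A2 was at 25.4 to 45.3 CPM early, 95.3 and 120 CPM at E21, and 20.2 and 34.8 CPM at E28. MFSD2A, the lipid carrier of brain capillaries (chromosome 6, 95738961 to 95753245), was at 1.63 to 2.66 CPM early, 70.0 and 52.8 CPM at E21, and 2.12 and 3.37 CPM at E28. In each of these genes both E21 libraries stood above the other 6. The tight junction protein OCLN followed the same order at 0.296 to 2.20, 15.2 and 12.4, and 2.12 and 3.37 CPM. MFSD2A and OCLN did not pass the low-count filter of the period fit. LEF1 also had both E21 libraries above the other 6, whereas CAVIN1, CAVIN2 and the tight junction scaffold TJP1 had both E28 libraries highest. The remaining list genes with a level had neither order. How many of all genes had such an order was not counted, so nothing is read from it about the list. These orders were read after the values were seen, and a contrast of 2 E21 against 2 E28 libraries was not tested.

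Of the fatty acid uptake genes, 2 of 5 tested rose (14.1% over all genes), GPIHBP1 and the homeobox factor MEOX2. Both were near 0 early and passed the low-count filter through their late levels, so the count gives no support for a rise of the list. MEOX2 was at 0.997, 1.16, 2.93 and 2.07 CPM early and at 7.59, 14.0, 72.2 and 83.0 CPM late (4.66 ± 0.74), with E28 above E21, and it was also high in other cells, at 88.5 and 104 CPM at E28. The scavenger receptor CD36 was at 0.166 to 8.58 CPM early and 3.37 to 17.0 CPM late (1.96 ± 0.75, adjusted p 0.0772). FABP4, the fatty acid chaperone of mature capillaries, had 0 UMIs in 7 libraries and 1.12 CPM in E28-DZ.

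Flow-responsive genes showed 3 of 10 tested higher and 1 lower, against 14.1% higher and 12.8% lower over all genes tested, with a median of 0.44. The flow-induced factors KLF4 (1.65 ± 0.37) and KLF2 (0.76 ± 0.21) and the junction receptor HEG1 (1.23 ± 0.26) rose, and CCM2 fell by 0.57 ± 0.15. KLF2 was at 243, 272, 267 and 503 CPM early and at 434, 489, 458 and 963 CPM late, with E18-DZ inside the late range. Nitric oxide synthase NOS3 (-0.02 ± 0.17) and the mechanosensitive channel PIEZO1 (-0.03 ± 0.14) did not pass the test. KLF2 was lost without E16-DZ, E18-ZZ, E28-ZZ or E28-DZ (adjusted p up to 0.098), and CCM2 without E16-ZZ, E16-DZ or E28-DZ (up to 0.0604).

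Within BMP and TGF-beta signalling, 4 of 13 genes tested rose and 2 fell, against 14.1% higher and 12.8% lower over all genes tested, with a median of 0.53. The co-receptor ENG was at 75.6, 124, 179 and 256 CPM early and at 476, 356, 432 and 501 CPM late (1.42 ± 0.28, adjusted p 0.00504), and the receptor ACVRL1 at 8.31 to 23.4 CPM early and 43.5 to 48.2 CPM late (1.60 ± 0.26). TGFBR2 (1.27 ± 0.22) and the inhibitor SMAD7 (1.05 ± 0.26) rose. TMEM100, a membrane protein induced through ACVRL1 (chromosome 12, 32008007 to 32014094), was at 11.5, 32.2, 56.4 and 87.0 CPM early and at 4.22, 4.66, 3.19 and 1.12 CPM late (-3.79 ± 0.70, adjusted p 0.00395), with no overlap. The inhibitor SMAD6 was at 12.6 to 42.3 CPM early and 6.37 to 17.1 CPM late (-1.23 ± 0.33). SMAD6 and SMAD7 were both lost without either E28 library (adjusted p up to 0.0688 and 0.0583).

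Cell division genes fell throughout. All 12 tested were lower late and passed the test, against 12.8% of all genes, with a median of -0.99. The replication helicase subunit MCM5 was at 183, 164, 173 and 147 CPM early and at 104, 103, 80.7 and 61.7 CPM late (-1.06 ± 0.17, adjusted p 0.00245). Cyclin B1 (CCNB1) was at 132 to 156 CPM early and 51.3 to 110 CPM late (-1.16 ± 0.19), and the topoisomerase TOP2A at 275 to 408 CPM early and 138 to 312 CPM late (-1.02 ± 0.23). The first 2 did not overlap between periods, and E21-ZZ was the highest late library for CCNB1 and TOP2A. BUB1, CDK1 and CENPF lost their calls on leaving out single libraries: BUB1 without any but E18-DZ or E21-ZZ (adjusted p up to 0.0947), CDK1 without E16-ZZ, E16-DZ, E28-ZZ or E28-DZ (up to 0.0683), and CENPF without E28-DZ (0.0541). None of 6 CDK inhibitors and D cyclins tested passed, with CDKN1A at 2.0 ± 0.70.

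Of 6 endocardial genes tested, 3 fell and 2 rose, against 14.1% higher and 12.8% lower over all genes tested. The natriuretic peptide receptor NPR3 was at 26.7, 42.2, 44.7 and 59.8 CPM early and at 10.96, 4.66, 2.12 and 0 CPM late (-3.22 ± 0.50, adjusted p 0.00181), without overlap. The cardiac factor GATA4 was at 28.7, 18.0, 28.0 and 13.3 CPM early and had counts in only E21-DZ late, at 4.66 CPM, and HAND2 was at 7.10 to 50.3 CPM early and had counts in only E21-DZ late, at 7.77 CPM. In the comparison with other cells described below, the log2 fold change of NPR3 differed by -4.62 (adjusted p 0.000168). Those of GATA4 (3.80, adjusted p 0.131) and HAND2 (-0.49, adjusted p 0.744) were not called different from other cells. CGNL1 (0.50) and CDH11 (1.11) rose, but CGNL1 was lost without E16-ZZ, E16-DZ, E18-ZZ, E21-ZZ or E28-ZZ (adjusted p up to 0.0831) and CDH11 without any library but E28-ZZ (up to 0.148). None of 3 haemogenic genes tested passed the test. The blood stem cell factor RUNX1 was at 0.592 to 3.65 CPM early and 0 to 3.11 CPM late.

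**Figure D4:**
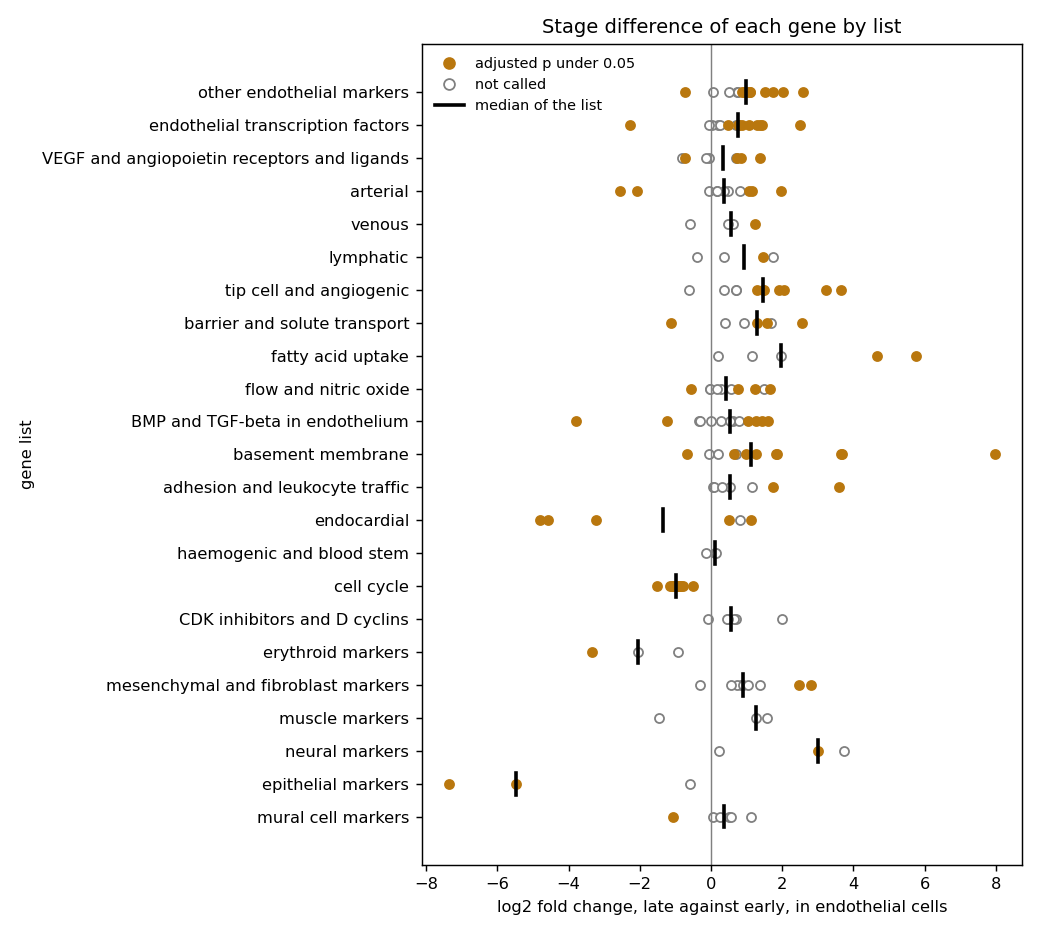
Log2 fold change, late against early in endothelial cells, of each tested gene, for gene lists with at least 3 genes tested, filled where the adjusted p was under 0.05, with a bar at the median of the list. All 12 cell cycle genes lie below 0, and 8 of 12 basement membrane genes are filled above it.

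Genes of other cell classes were present in the endothelial sums and moved with stage. Summed over 9 epithelial genes, the level was 1375, 1116, 496 and 169 CPM early and 103, 126, 14.9 and 12.3 CPM late, and in other cells 7852, 6246, 2487 and 2046 CPM early and 6.86 to 115 CPM late. Over all genes tested, 14.1% rose and 12.8% fell. KRT8 and KRT18, the simple epithelial keratins, were the 2 of 3 tested that fell. The epithelial markers EPCAM and CDH1 were at 0 in all 4 late libraries. The 9 neural genes summed to 101 to 228 CPM early and to 942, 186, 205 and 448 CPM late, against 202 to 689 CPM early and 876 to 3677 CPM late in other cells. STMN2, a neuronal tubulin regulator, was at 9.47 to 52.7 CPM early and 396, 41.9, 63.7 and 274 CPM late (3.01 ± 0.71), the 1 of 3 neural genes tested that rose, and was lost without E28-DZ (adjusted p 0.0697). The 8 erythroid genes summed to 266 to 2679 CPM early and 94.5 to 639 CPM late, against 4191 to 15636 CPM in other cells, and the embryonic globin HBZ was the 1 of 3 tested that fell (-3.34).

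Summed over 10 genes, macrophage markers were at 5.03 to 22.8 CPM early and 26.4 to 146 CPM late, against 1.56 to 5.12 CPM early and 22.0 to 43.7 CPM late in other cells, and were higher in endothelial than in other cells in all 8 libraries. At least 3 of these genes were present in 0% to 2.35% of a library's endothelial cells. Against 14.1% of all genes, the complement gene C1QB was the 1 of 2 tested that rose, with counts in only E18-ZZ early and 60.7, 1.55, 58.4 and 18.0 CPM late. The 9 mesenchymal genes were at 270 to 626 CPM early and 428 to 799 CPM late, against 888 to 7072 CPM in other cells, and LUM and OGN, small proteoglycans, rose among 9 tested (2.48 and 2.80), against 14.1% of all genes. Of 6 mural genes tested, DES fell (-1.07), against 12.8% of all genes. It was not past the threshold with at least 4 rule genes, with a mitochondrial limit of 5%, without the cells with genes of another class, or without both E16 or both E28 libraries. In the endothelial sums, the pericyte receptor PDGFRB was at 2.24 to 18.6 CPM. None of 3 muscle genes tested passed. The part of these cells or of their free RNA in the endothelial differences was not tested. Without the 718 cells that carried at least 3 genes of another class, mesenchymal and mural genes not counted, 2129 genes passed the test. Of these, 1995 were among the 2532 and in the same direction. Cells with only mesenchymal or mural genes stayed in that fit, so the part of such cells or their RNA was not tested by it.

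The stage difference of endothelial cells was then set against that of the other cells in the same libraries. The log2 fold changes of the 2 classes differed at an adjusted p of 0.05 for 1645 of 14120 genes (11.7%), with 682 higher in endothelial cells (4.83%) and 963 lower (6.82%). The median over all tested genes was -0.13. With relative log expression scaling in place of TMM, the counts were 826 higher and 660 lower. The 16 genes named in this comparison kept their direction under that scaling.

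The genes named here have a symbol and an endothelial mean of at least 50 CPM, late for positive differences and early for negative ones. Genes below that limit, such as OCLN (6.91) and CLDN6 (5.11), had differences as wide. EPAS1 differed by 5.56 ± 0.67 (adjusted p 0.000271), since it was at 14.7, 22.9, 4.51 and 10.1 CPM in other cells early and at 0.983 to 2.0 CPM late while the endothelial level went up. The endothelial lead of EPAS1 was thus absent at E16, where other cells were slightly higher, and wide at E21 and E28. C1orf115 (5.96 ± 0.39), PRND (5.62 ± 0.51), the membrane repair protein MYOF (4.63 ± 0.24), RARRES2 (4.50 ± 0.39), the fructose transporter SLC2A5 (4.45 ± 0.42), the transcription repressor PRDM1 (4.12 ± 0.42) and FILIP1 (4.02 ± 0.61) had the other leading positive differences within that limit. MYOF was at 7.17 to 9.80 CPM early and 40.5 to 129 CPM late in endothelial cells, and at 20.01 to 33.8 CPM early and 5.68 to 13.7 CPM late in other cells. The order of the 2 classes was therefore opposite in the 2 periods.

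On the negative side and within the same limit, SERPINI1 differed by -4.99 ± 0.50 and GJA5 by -3.75 ± 0.51. FLI1 differed by -2.58 ± 0.29 (adjusted p 0.000188): it overlapped between periods in endothelial cells and went from 2.93, 4.63, 8.41 and 11.4 CPM to 30.0, 43.5, 38.9 and 38.3 CPM in other cells. CCDC80 (-3.66 ± 0.41), STEAP1 (-2.95 ± 0.84), TMEM26 (-2.63 ± 0.55), the growth factor PTN (-2.52 ± 0.40) and HOMER2 (-2.26 ± 0.28) followed. STEAP1 was lost without any 1 library but E18-ZZ or E18-DZ (adjusted p up to 0.11). By list, against 4.83% higher and 6.82% lower over all genes, 9 of 15 transcription factors were higher and 4 lower (ETV2, FLI1, ELK3 and MEF2C), 9 of 12 basement membrane genes were higher, and 7 of 10 barrier genes were higher. Of 14 BMP and TGF-beta genes, 1 was higher and 3 lower, and of 8 endocardial genes, 1 was higher and 2 lower. Of 12 arterial genes, 4 were higher and 2 lower, and 2 of 9 fatty acid uptake genes were higher. The late rises of ENG, ACVRL1, SMAD7, TGFBR2 and GPIHBP1 were not called different from other cells. Among 13 cell cycle genes, 3 were lower (6.82% over all genes) and none higher, with a median of -0.23 against -0.13 over all genes.

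**Figure D5:**
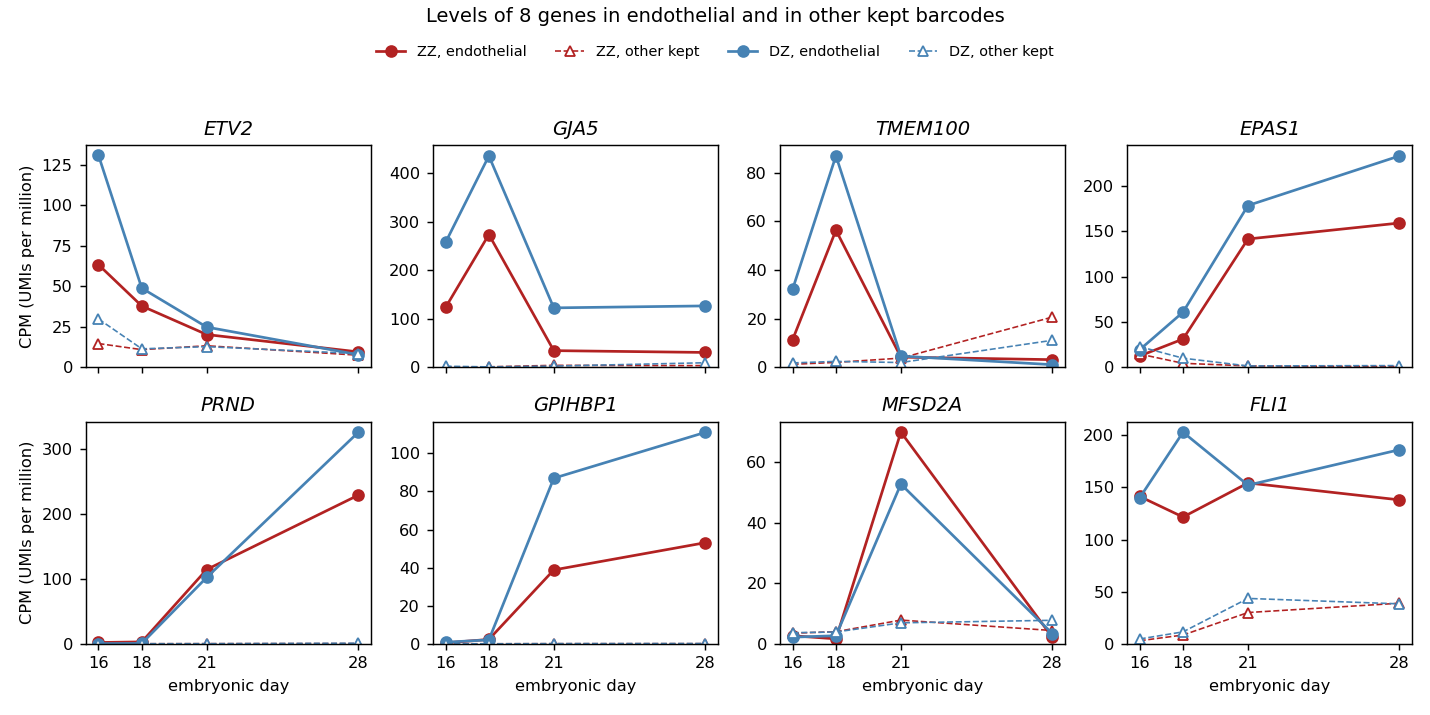
CPM against embryonic day of ETV2, GJA5, TMEM100, EPAS1, PRND, GPIHBP1, MFSD2A and FLI1 in endothelial cells (filled circles, solid lines) and in other cells (open triangles, dashed lines) for each breed, with an axis of its own for each gene. EPAS1 separates the classes only after E16, and FLI1 stays at 122 to 203 CPM in endothelial cells while other cells go from 2.93 CPM to as much as 43.5 CPM.

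Between breeds, few genes differed. Of 9412 genes tested with stage as a factor, 2 passed an adjusted p of 0.05 (0.0212%), 1 higher in ZZ (0.0106%) and 1 lower (0.0106%), 685 had an unadjusted p under 0.05, and DESeq2 called 4. GAP43, a growth cone protein, was at 85.2, 45.3, 75.9 and 17.0 CPM in the ZZ libraries of E16, E18, E21 and E28 and at 36.6, 18.3, 15.5 and 4.49 CPM in the DZ libraries (log2 1.44 ± 0.18 higher in ZZ, adjusted p 0.0363). It was higher in ZZ at 4 of 4 stages, and other cells held up to 357 CPM. It was not past the threshold without any 1 of the E18, E21 or E28 libraries (adjusted p up to 0.239). CYP2J34, a cytochrome P450 gene, was at 8.14, 11.4, 3.37 and 5.31 CPM in ZZ and at 27.3, 33.1, 15.5 and 21.3 CPM in DZ (-1.73 ± 0.20, adjusted p 0.0363), with no overlap. Other cells of the same libraries had 5.00, 10.9, 2.48 and 5.76 CPM in ZZ and 23.0, 26.7, 12.7 and 12.4 CPM in DZ, so the difference was not confined to endothelial cells. The breeds did not overlap for 1.2% of tested genes higher in ZZ and 0.521% lower. CYP2J34 has close relatives, and its counts are uncertain to the extent that reads were shared with them. It fell outside the rule for named genes and was chosen after its values were seen. CYP2J34 was not called on leaving out any 1 of the 8 libraries, nor without the top doublet scores.

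Arterial genes, like most genes of several other lists, lay on one side between breeds without passing the test. All 11 tested had a negative log2 of ZZ over DZ, with a median of -0.57, against 49.6% of all genes tested and a median of 0.00. The same sign was seen in 13 of 15 transcription factors, 6 of 7 adhesion genes, 8 of 10 flow-responsive genes and 3 of 3 haemogenic genes. It was also seen in 4 of 5 fatty acid uptake, 10 of 13 BMP and TGF-beta, 9 of 12 basement membrane and 6 of 8 VEGF and angiopoietin genes. The medians of these lists were -0.37 to -0.05. Only 3 of 11 tip cell, 1 of 4 lymphatic, 2 of 12 cell cycle and 0 of 9 mesenchymal genes had that sign. For 9 of the 11 arterial genes the ZZ level was lower at all 4 stages, a count that was not made over all genes. GJA5, for example, was at 124, 274, 34.6 and 30.8 CPM in ZZ and 258, 436, 123 and 127 CPM in DZ (-1.26), and GJA4 at 91.9, 202, 202 and 119 CPM in ZZ and 260, 294, 247 and 297 CPM in DZ (-0.94). The share of thinned endothelial cells with at least 2 arterial genes was lower in ZZ at each stage. It was counted from the same genes in the same libraries, so it is not separate support. No arterial gene passed the adjusted threshold, and 4 pairs of libraries cannot give a two-sided exact p under 0.125. This was noticed after the values were seen.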

How the data were processed

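The deposited matrices hold raw UMI counts per gene and cell barcode, which the authors made with Cell Ranger against Sscrofa11.1. The version was 3.1.0 for 2 libraries and 3.0.2 for 6, per the headers of the matrices. The version change falls on both E16 libraries. Of 21301 genes, 6455 had no symbol in the files, and 680 of these were named from RefSeq by Ensembl identifier. Barcodes were selected as described, and counts were summed per library over endothelial and over other barcodes with Python 3.11.15, scanpy 1.11.5, numpy 2.4.6, pandas 2.3.3 and scipy 1.17.1. Sums were tested with the quasi-likelihood test of edgeR 4.0.16 (limma 3.58.1, R 4.3.3; TMM scaling, filterByExpr), with Benjamini-Hochberg adjustment over all genes tested at 0.05. Every adjusted p is from this test. The comparison of cell classes kept the library as a block. Shares were compared by an exact permutation test. Intervals of shares are exact binomial ones at 95%. Scripts were tested on simulated data.

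Besides members of 25 gene lists, the text names up to 12 genes in each direction between periods and up to 8 between breeds and between cell classes, by log2 fold change past the threshold. Named genes have a symbol and a mean of at least 50 CPM in the higher group. Between cell classes this was the endothelial mean, late for positive and early for negative differences. For periods the groups did not overlap and the level was at least 2 times that of other cells. The cells and lists were chosen with earlier results of these data known. Of 269 list genes, 246 are in the files, and members that are not named count in the tallies where they passed the low-count filter. Alternatives were a stricter marker count of 4, a minimum of 1000 UMIs, a mitochondrial limit of 5% or none, removal of the top Scrublet doublet scores (0.8% per 1000 barcodes), thinning to 1500 UMIs, relative log expression scaling, no low-count filter, DESeq2 1.42.0, stage as a factor, and leaving out libraries or stages. The automatic Scrublet threshold marked 325 kept barcodes, 9 of them endothelial, and was not used. Figures were drawn with matplotlib 3.10.9.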

Additional observations from a re-analysis of the deposited data

Results flagged for a closer look

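Of 64 sets of 4 libraries examined, 2 held 1 library far from the other 3, where chance gives about 1 in 20. LMCD1, a LIM-domain protein, stood at 130 CPM in E28-DZ against 44.6 to 54.4 CPM in the other late libraries. The endothelial receptor GPR182 stood at 108 CPM in E16-DZ against 66.6 to 70.4 CPM in the other early libraries.

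The stage difference differed between endothelial and other cells, by the test of the difference itself, for the genes named above. On the log2 scale the differences were 5.96 for C1orf115, 5.62 for PRND, 5.56 for EPAS1, 4.63 for MYOF, 4.50 for RARRES2, 4.45 for SLC2A5, 4.12 for PRDM1 and 4.02 for FILIP1. They were -4.99 for SERPINI1, -3.75 for GJA5, -3.66 for CCDC80, -2.95 for STEAP1, -2.63 for TMEM26, -2.58 for FLI1, -2.52 for PTN and -2.26 for HOMER2.

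Endothelial genes were also present in barcodes that the mitochondrial limit removed. Of 7821 such barcodes, 883 had at least 3 of the 7 endothelial genes, 536 of them in E16-ZZ. For the E16 pair of libraries this was 13.4% (ZZ) and 18.6% (DZ) of removed barcodes against 8.65% and 9.65% of kept ones, and the removed share was the higher in all 8 libraries.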

How the results depend on the processing

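The labels give no replicate numbers that pair libraries. Breeds were compared within stage and cell classes within library. Depth limits the late libraries, where 3 counts are 2.53 to 4.66 CPM, and a period of 4 pooled libraries cannot reach an exact p under 0.0286. The difference in share kept its direction under all alternatives run. It was -1.10 points with a mitochondrial limit of 5% (exact permutation p 0.0571), -2.09 without E16 (0.0667, the smallest that 15 splits allow) and -5.16 without E28 (0.133), and it ranged from -6.41 to -4.02 on leaving out 1 library, with exact p from 0.0286 to 0.0857. The 4 of the latter over 0.05 each leave out a late library.

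Of 2532 genes between periods, the count was 336 with a mitochondrial limit of 5% (which left 5 libraries), 978 without E16 and 721 without E28, and 1597 to 2415 on leaving out 1 library, lowest without E16-DZ and next, at 1680, without E28-DZ. Of the 2532, 325, 908 and 640 were called in the same direction under the first 3. Of 105 named genes that rose or fell, 84 kept their call in each fit without 1 library in which they were tested. However, 53 of 105 lost their call without E28, 30 of 104 without E16 and 40 of 90 at the 5% limit. TOR4A (0.42) and GJA5 (0.67) reversed at the 5% limit without passing the threshold. The 2 breed calls are 0.0212% of genes tested. The share was 0.0114% without top doublet scores, 0% without a mitochondrial limit (an alternative chosen after seeing the data), 0.914% with no low-count filter (50 genes higher in ZZ and 99 lower), 0.0245% with DESeq2, and 0% to 0.129% on leaving out 1 library, above 0 only without E16-ZZ (10 genes) or E16-DZ (11). At the 5% limit the breed model had no residual degrees of freedom. Of 1645 genes that differed between cell classes, the count was 458 with the 5% limit, 591 without E16, 802 without E28, and 922 to 1815 on leaving out 1 library, with 922 and 1042 without E16-DZ or E16-ZZ. The causes were not tested beyond the smaller number of libraries.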

Other observations

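The E21 endothelial cells held a set of genes, most of them carriers, that neither the earlier nor the later libraries showed at that level. The cationic amino acid carrier SLC7A1 was at 7.81 to 10.8 CPM early, 121 and 63.7 CPM at E21, and 8.50 and 8.98 CPM at E28. The glutamine carrier SLC38A5 was at 21.9 to 23.8 CPM early, 223 and 116 CPM at E21, and 19.1 and 24.7 CPM at E28. The Wnt inhibitor APCDD1 was at 10.4 to 22.6 CPM early, 218 and 120 CPM at E21, and 11.7 and 4.49 CPM at E28. These genes were chosen after their values were seen, so no test was made.

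With SPARCL1, MFSD2A and SLC7A5 added, barcodes with at least 2 of the 6 genes were counted at 1500 UMIs. They were 0 of 539, 7 of 1005, 2 of 247 and 0 of 337 endothelial cells early, 30 of 125 (24.0%) and 10 of 53 (18.9%) at E21, and 0 of 82 and 0 of 75 at E28. At 3 counts over the cells, the counts of 0 allow shares up to 0.557% and 0.890% early and up to 3.66% and 4.00% at E28 (exact 95% upper bounds 0.682%, 1.09%, 4.399% and 4.80%). These limit cells with UMIs of 2 of the genes at 1500 UMIs, not cells that express them. They cover counting error within a library only. The contrast with E21 follows from the choice of the genes, so no support is drawn from it. Other cells held 0.279% to 0.911%. Without thinning, the shares were 17.1%, 12.3%, 15.4% and 9.76% early, 35.1% and 41.8% at E21, and 14.1% and 22.4% at E28, against 3.11% to 9.44% of other cells. At E21 such cells numbered 47 in ZZ and 23 in DZ, with median UMI counts of 7931 and 11341 against 6478 and 10315 in the rest.

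Within E21, the cells with the set had more CLDN5 than those without, at 3930 against 1094 CPM in ZZ and 2464 against 709 CPM in DZ. The alkaline phosphatase ALPL was at 146 against 21.7 CPM and 160 against 10.7 CPM, and the Notch ligand JAG1 at 168 against 27.5 CPM and 156 against 16.0 CPM. PLVAP and CD34 were at like levels, with PLVAP at 1662 against 1906 CPM and 1425 against 1618 CPM, and CD34 at 370 against 397 CPM and 383 against 360 CPM. The neuronal gene STMN2 was at 358 against 423 CPM and 44.7 against 40.0 CPM. TUBB3, another neuronal gene, was at 241 against 327 CPM in ZZ and at 22.3 CPM (6 UMIs) against 0 CPM in DZ. The somite samples of E21 and the myotome samples of E28 differ in tissue, and that cannot be told apart from stage.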
